A study of Bos taurus with 12 samples.

Results

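The 10 immediate early genes described here encode transcription factors and regulators that cells transcribe shortly after a stimulus: FOS, FOSB, JUN, JUNB, ATF3, EGR1, NR4A1, ZFP36, DUSP1 and IER2. They were matched by symbol in the array's annotation, and all 10 were found, each given by 1 of the 26323 transcripts measured. They were chosen by their log2 differences between old and young females in these arrays, so their values are given as a description.

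Immediate early genes are held ready for transcription and respond without new protein synthesis when growth factors, hormones, cytokines or cell stress activate kinases such as the MAP kinases. Proteins of the FOS, JUN and ATF families pair through leucine zippers to form AP-1, which binds DNA and drives later genes, while ZFP36 and DUSP1 limit the response, the first by speeding the decay of mRNAs and the second by removing phosphates from MAP kinases. In the uterus, FOS and JUN are classical early targets of estradiol.

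Intercaruncular endometrium, biopsied at Day 15 of the cycle, was compared to ask how age bears on the uterine lining. Old females (OF, n = 4) were 13 to 14 years old and nulliparous, and young females (YF, n = 4) were 4 to 5 years old and primiparous, so that age and parity cannot be told apart. All OF and YF were Holstein somatic clones from 1 donor cow, which makes each group a sample of 1 genotype. The series also holds 4 contemporary cows, whose age and genotype the labels do not give, and the labels state that the authors left 1 of them, animal 1111, out, so that n = 3 in the comparisons.

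RNA of each animal was hybridized in 1 colour to its own array, and a level is the log2 intensity minus the 75th percentile of the array, averaged over the probes of a transcript. On each array that percentile lay between 968 and 1597 intensity units, 71.6% to 74.9% of spots were well above background and 0 were saturated. Each of the 10 genes was well above background on 12 of 12 arrays, with every probe. The arrays lay on 2 slides. Slide 1 carried YF 1070, YF 1072, OF 0245 and contemporary 1111, and slide 2 the other 8.

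Every gene was read by 2 different probe sequences, 20 in all, and for 5 genes (ATF3, DUSP1, EGR1, IER2 and JUNB) the 2 overlapped by 24 to 54 bases, so that they are not independent readings. The files give no position of a probe within its transcript. To show short motifs that several of these probes hold, 5 windows of 30 bases are printed as deposited, searched on that strand only. In FOS and JUNB the capitals mark ATTTA, which is AUUUA in the mRNA, the core of the AU-rich elements that ZFP36 binds. In FOSB, JUN and IER2 they mark AATAAA, the polyadenylation signal near the 3′ end of an mRNA.
FOS: acttgaatgaaaaATTTAagcattgtttgc
JUNB: ggtttctaaaggATTTAttttaatttgtgt
FOSB: tgcactgtcgccAATAAAaaactcttaaaa
JUN: gcactctgagtttaccatttgtAATAAAgt
IER2: gccagataggaaAATAAAgaccaattgtat
ATTTA stood in 3 of the 20 sequences and in 6.83% of the 50968 different sequences on the array, and AATAAA in 4 of the 20 and in 7.97% of all. A match is a description of the probe and not a site shown to work.

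The genes are short, as the annotation on UMD3.1 gives them: 8 of 10 span fewer bases than the median transcript. Their median span was 3602.5 bases, from 1772 in IER2 to 13821 in ZFP36, against 9971 over the 26060 transcripts with a position. EGR1, IER2 and JUNB, 3 of the 10, lie on chromosome 7, where about 305700 bases separate IER2 from JUNB.

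Over all animals, the 10 genes varied together and widely, and OF and YF overlapped for each of them. A single old female, OF 2258, had the highest level of all 10 genes among 12 animals, and contemporary 1068 the second highest of all 10. YF 1070 and OF 0245 were among the 4 highest for all 10, and YF 1069 was the lowest for 8, with YF 1127 the lowest for FOSB and JUN. In bulk tissue, fewer cells of a type and less RNA per cell cannot be told apart. Levels below are given in the order 1069, 1070, 1072 and 1127 for YF, 0233, 0234, 0245 and 2258 for OF, and 1068, 1128 and 1129 for the contemporary cows.

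**Figure D1:**
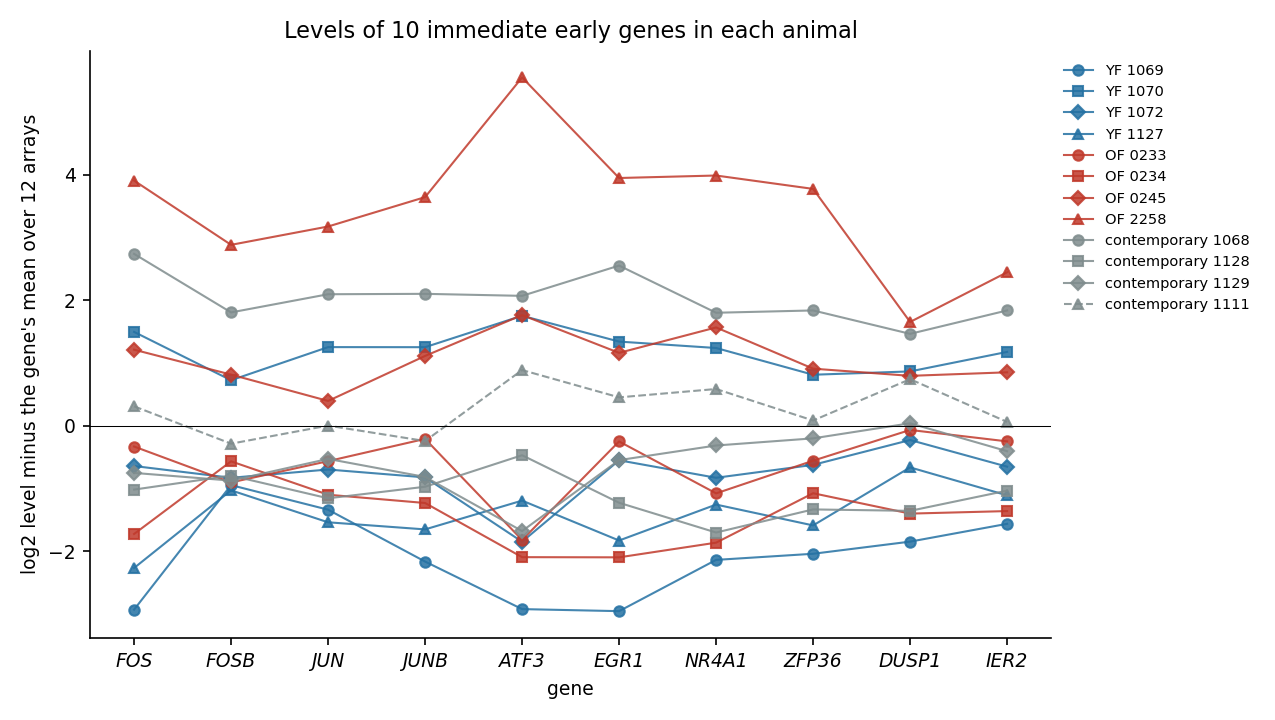
Level of each gene in each of 12 animals, as the log2 level minus the gene's own mean over 12 arrays. Each line is 1 animal, coloured by group, with contemporary 1111 dashed. OF 2258 is the highest line at every gene and contemporary 1068 the second, while the other OF and YF lines are mixed.

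FOS, the partner that gives AP-1 dimers with JUN proteins their high stability on DNA (ENSBTAT00000005660, chromosome 10, 86883739 to 86887169), had log2 levels of 1.06, 5.49, 3.35 and 1.72 in YF. In OF they were 3.66, 2.27, 5.20 and 7.90, and in the contemporary cows 6.73, 2.97 and 3.24. OF 2258 and contemporary 1068 were the highest, YF 1070 stood above 3 of the 4 OF, and the groups overlapped. The means were 4.76 ± 2.41 in OF (SD, n = 4) and 2.90 ± 1.97 in YF (SD, n = 4), a log2 difference of 1.85 ± 1.32 (SE).

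FOSB, a close relative of FOS that also needs a JUN partner (ENSBTAT00000010762, chromosome 18, 53501995 to 53508395), had log2 levels of 3.47, 5.14, 3.58 and 3.38 in YF. Its levels were 3.51, 3.84, 5.23 and 7.29 in OF and 6.22, 3.62 and 3.54 in the contemporary cows. All but 4 of these 11 values lay within a narrow band between 3.38 and 3.84, with YF 1070, OF 0245, OF 2258 and contemporary 1068 above it. The group means were 4.97 ± 1.72 in OF (SD, n = 4) and 3.89 ± 0.83 in YF (SD, n = 4), which differed by 1.08 ± 0.82 (SE) on the log2 scale.

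JUN, the main DNA-binding partner within AP-1 (ENSBTAT00000005279, chromosome 3, 87841042 to 87843087), had log2 levels of 2.55, 5.14, 3.19 and 2.35 in YF. It stood at 3.32, 2.79, 4.28 and 7.06 in OF and at 5.98, 2.73 and 3.36 in the contemporary cows. YF 1070 was above OF 0233, 0234 and 0245, so that the groups overlapped, and only OF 2258 lay above every YF. The log2 difference was 1.06 ± 0.97 (SE), between a mean of 4.37 ± 1.90 for OF and one of 3.31 ± 1.27 for YF (SD, n = 4 in each group).

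JUNB, a JUN family member with weaker activity of its own that can restrain JUN (ENSBTAT00000015987, chromosome 7, 13851131 to 13852933), had log2 levels of 1.59, 5.01, 2.93 and 2.10 in YF. OF stood at 3.55, 2.52, 4.87 and 7.40, and the contemporary cows at 5.86, 2.78 and 2.94. Here too YF 1070 lay among the high animals and OF 0234 among the low ones. With means of 4.58 ± 2.11 in OF and 2.91 ± 1.5 in YF (each SD over 4 animals), the log2 difference was 1.68 ± 1.10 (SE).

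ATF3, a stress-induced factor that can repress its targets (ENSBTAT00000011265, chromosome 16, 72820026 to 72832974), had the widest range, 8.47 on the log2 scale or 355-fold between OF 2258 and YF 1069. Its log2 levels were -1.14, 3.54, -0.06 and 0.59 in YF, -0.03, -0.31, 3.55 and 7.33 in OF and 3.85, 1.32 and 0.11 in the contemporary cows. OF 2258 stood alone at the top, 3 animals of different groups (YF 1070, OF 0245 and contemporary 1068) formed a band between 3.54 and 3.85, and the other 7 were lower. Its log2 difference of 1.90 ± 1.74 (SE) lay between a mean of 2.63 ± 3.59 in OF and 0.73 ± 2.0 in YF (each SD over 4 animals).

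EGR1, a zinc finger factor that binds GC-rich promoters (ENSBTAT00000013284, chromosome 7, 51438727 to 51442500), had log2 levels of 0.86, 5.15, 3.26 and 1.98 in YF. In OF its levels were 3.56, 1.72, 4.97 and 7.76, and in the contemporary cows 6.36, 2.58 and 3.26. Its order of animals was nearly that of FOS, with YF 1069, OF 0234 and YF 1127 the lowest. Means of 4.50 ± 2.55 in OF and 2.81 ± 1.84 in YF (each SD over 4 animals) gave a log2 difference of 1.69 ± 1.33 (SE).

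NR4A1, an orphan nuclear receptor whose activity follows its amount (ENSBTAT00000046887, chromosome 5, 27977007 to 27985786), had log2 levels of -0.42, 2.96, 0.89 and 0.47 in YF, 0.64, -0.14, 3.29 and 5.71 in OF and 3.52, 0.02 and 1.41 in the contemporary cows. Its log2 difference was 1.40 ± 1.28 (SE), from means of 2.38 ± 2.66 in OF and 0.98 ± 1.43 in YF (each SD over 4 animals). OF 0234 lay below 3 of the 4 YF, and the groups overlapped. A second transcript of the gene, ENSBTAT00000000648, gave a log2 difference of 1.51 and followed the first over the 12 animals with a Pearson r of 0.997.

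Among the regulators, ZFP36, the AU-rich element binding protein named above (ENSBTAT00000066266, chromosome 18, 49361497 to 49375317), had log2 levels of 0.73, 3.58, 2.14 and 1.18 in YF, 2.21, 1.69, 3.67 and 6.54 in OF and 4.60, 1.43 and 2.56 in the contemporary cows. Means of 3.53 ± 2.18 in OF and 1.91 ± 1.26 in YF (each SD over 4 animals) differed by 1.62 ± 1.07 (SE) on the log2 scale. OF 0245 and OF 2258 lay above every YF, and OF 0233 and OF 0234 within the range of YF. Its other transcript, ENSBTAT00000011308, gave a log2 difference of 1.64, with an r of 0.994 to the first.

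DUSP1, the MAP kinase phosphatase (ENSBTAT00000018411, chromosome 20, 4449109 to 4452189), had the narrowest range, 11.3-fold between OF 2258 and YF 1069. Its log2 levels were 1.86, 4.57, 3.48 and 3.04 in YF, 3.64, 2.31, 4.50 and 5.36 in OF and 5.17, 2.35 and 3.75 in the contemporary cows. YF 1070 again stood above OF 0233, 0234 and 0245. Between means of 3.95 ± 1.30 in OF and 3.24 ± 1.12 in YF (each SD over 4 animals), the log2 difference of 0.71 ± 0.73 (SE) was smaller than its standard error.

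IER2, a small nuclear protein of the early response (ENSBTAT00000021755, chromosome 7, 13543664 to 13545435), had log2 levels of 1.91, 4.65, 2.82 and 2.36 in YF, 3.22, 2.11, 4.32 and 5.91 in OF and 5.31, 2.44 and 3.06 in the contemporary cows. Means of 3.89 ± 1.62 in OF and 2.93 ± 1.20 in YF (each SD over 4 animals) differed by 0.96 ± 0.86 (SE) on the log2 scale. The groups overlapped, and OF 2258 was the only OF above every YF.

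Within groups, these genes were spread more widely than most transcripts on the array. They were chosen by OF minus YF on the same arrays. OF 2258, the highest animal for all 10, adds both to that difference and to the spread within OF. The choice can thus favour genes with a large SD, so nothing is read from their rank among all transcripts. Their SD within a group on the log2 scale was between 1.21 for DUSP1 and 2.55 for ATF3, with a median of 1.67. Over all 19991 transcripts the median was 0.33, the 95th percentile 1.01 and the 99th 1.57. Only 5 transcripts had a larger SD than ATF3, 35 a larger one than FOS and 556 a larger one than DUSP1. Between the lowest and the highest of 12 animals, FOS ranged 114-fold, EGR1 120-fold, NR4A1 69.7-fold, ZFP36 56.2-fold, JUNB 56-fold, JUN 26.2-fold, IER2 16.1-fold and FOSB 15-fold.

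Set against YF, OF had the higher mean for 10 of 10 genes, by a median of 1.51 on the log2 scale and by 0.71 for DUSP1 to 1.90 for ATF3, and no difference was clear of the spread between animals. For 9 of 10 genes the difference exceeded 1 standard error, and for 0 of 10 it exceeded 2. The median difference over all 19755 transcripts tested was 0.01, and 51.7% of their differences were positive. By limma, which moderates each transcript's variance with that of all others, 0 of 10 genes were called at an adjusted p of 0.05, where the background was 0% (0 of 19755), and 478 transcripts had an unadjusted p under 0.05. OF and YF did not overlap for 0 of 10 genes, against 1.53% of all transcripts tested.

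FCROS, which ranks ratios of single OF to single YF and asks for a fold change of 1.5 between arithmetic means, called 5 of 10 genes higher in OF (FOS, JUN, JUNB, EGR1 and ZFP36) and 0 of 10 lower. Its background was 2.88% higher and 2.06% lower among 26323 transcripts, and since the choice of genes used this contrast, nothing is read from the count. ATF3 had a fold of 12.0 between arithmetic means and an f-value of 0.941, and was not called. Without OF 2258 its fold was 1.24, and the folds of all 10 genes lay between 0.876 and 1.39, below the 1.5 that FCROS asks for, an alternative chosen after seeing the data. Single animals moved the count. Without OF 2258 or without YF 1069, FCROS called 0 of the 10, without YF 1127 it called 1, and without OF 0245 it called 3. Without OF 0234 or without YF 1070 it called all 10. With the normexp background correction it called 8. The shares of 2.88% and 2.06% of all transcripts belong to the setting with all 8 animals, so nothing is read from these counts either.

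**Figure D2:**
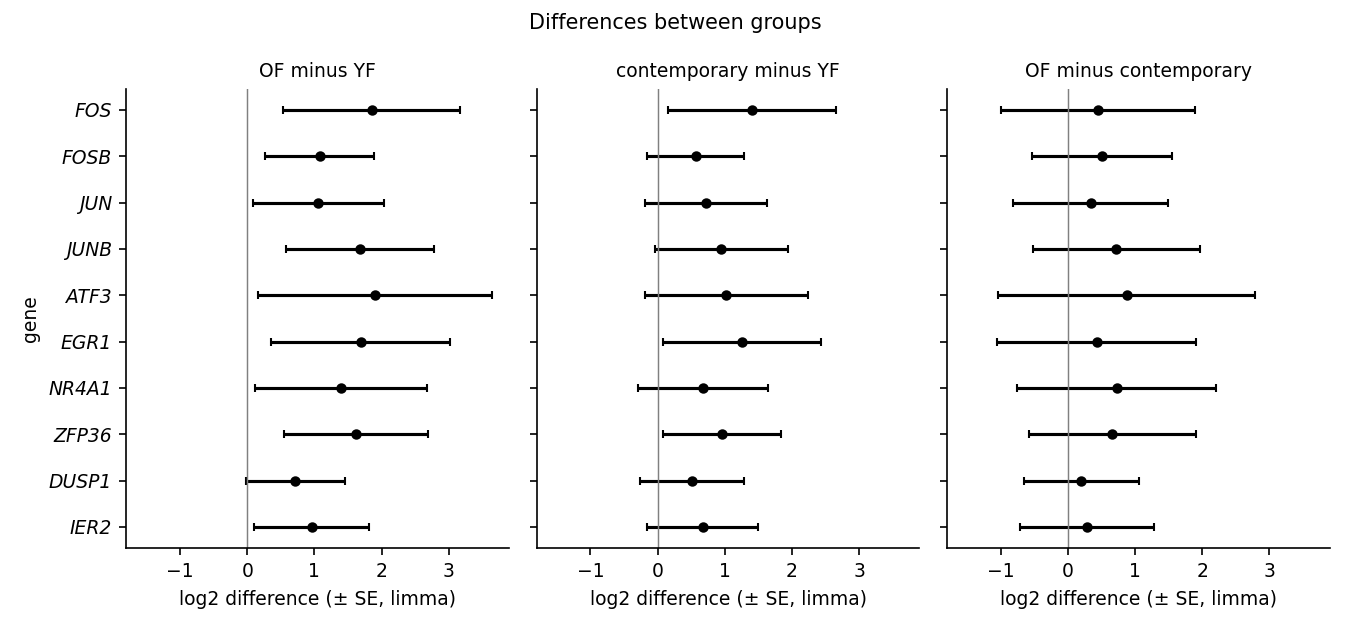
Log2 difference between group means of each gene in 3 comparisons, with bars of 1 standard error from limma (4 OF, 4 YF, 3 contemporary cows). All points lie right of 0. For OF minus contemporary every bar is longer than the difference and reaches across 0.

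The size of the difference between OF and YF depended on few animals. Its median over the 10 genes was 0.32 without OF 2258, with 10 of 10 positive between 0.16 and 0.80. It was 0.99 without YF 1069 and reached 2.24 without OF 0234. On slide 1, where OF 0245 met YF 1070 and YF 1072, the median was 0.80, from 0.12 for JUN to 1.81 for ATF3. On slide 2 it was 2.29, from 1.32 for DUSP1 to 3.21 for FOS, and with the slide as a block 1.86. With a weight for each array estimated by limma, which gave OF 0234 a weight of 6.91 and OF 2258 one of 0.357, the direction turned and the median was -0.73, from -1.06 for EGR1 to -0.00 for FOSB.

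**Figure D3:**
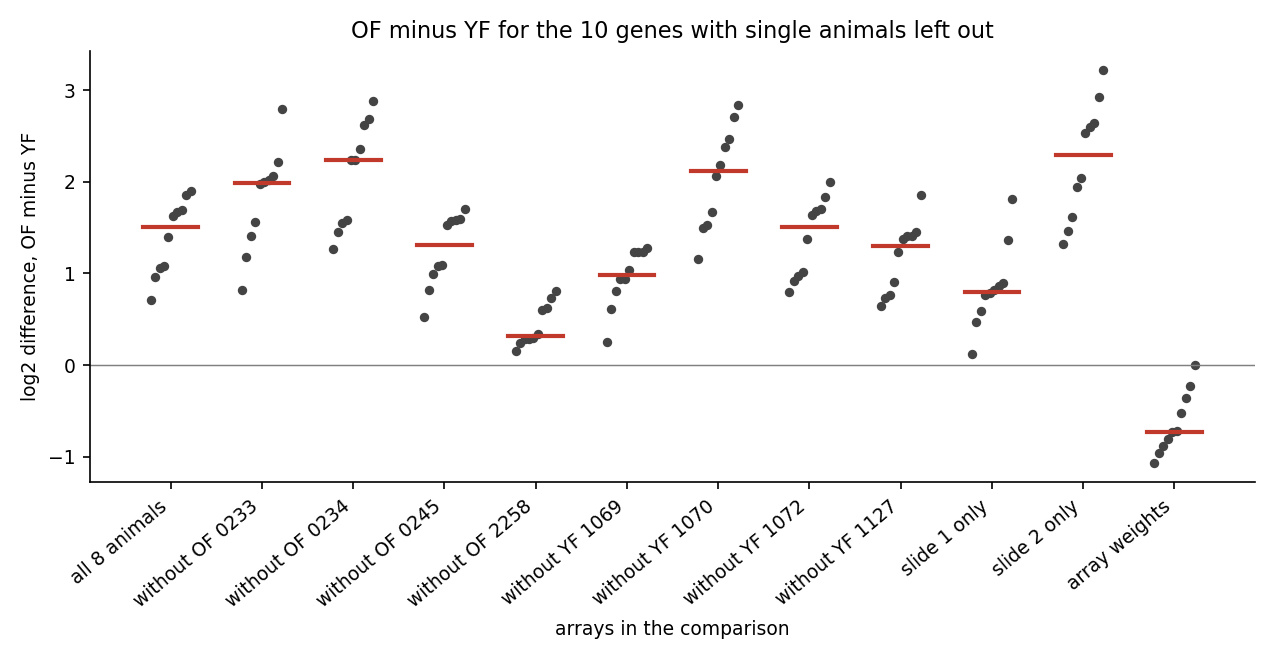
Log2 difference OF minus YF of the 10 genes (points) and their median (bar) with all 8 animals, with each animal left out, within each slide and with array weights. The median was lowest with array weights, where no point lies above 0, and next lowest without OF 2258, where the points lie between 0.16 and 0.80.

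Contemporary cows are a set of the same series that shares the YF arrays with the comparison above, and the labels give no question for them. Against YF, their means were higher for 10 of 10 genes, by a median of 0.83 on the log2 scale. The largest difference was that of FOS, 1.41 ± 1.25 (SE), followed by EGR1 with 1.26 ± 1.18 (SE), and the smallest that of DUSP1, 0.52 ± 0.77 (SE). Contemporary 1068 was the only one of the 3 above every YF, for each of the 10 genes, and without it the median was -0.12 and 3 of 10 differences were positive. It was 0.44 without YF 1069, and 1.43 without YF 1070 or without contemporary 1128. On slide 2 alone, with 3 contemporary cows and 2 YF, the median was 1.77, which is also the value with the slide as a block. With array weights it was -0.25.

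By limma, 0 of 10 genes were called between contemporary cows and YF (background 0%, 0 of 19993), with 606 transcripts at an unadjusted p under 0.05. FCROS was not run for the contemporary cows. The groups did not overlap for 0 of 10 genes, against 3.83% of transcripts. The median difference over all transcripts was -0.02, and 45.4% of their differences were positive.

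Between OF and the contemporary cows, which share arrays with both comparisons above, the median difference was the smallest of the 3. OF had the higher mean for 10 of 10 genes, by a median of 0.48 on the log2 scale, from 0.20 ± 0.86 (SE) for DUSP1 to 0.88 ± 1.91 (SE) for ATF3, and 0 of 10 exceeded 1 standard error. The direction depended on single animals. Without OF 2258 the median was -0.39 and 0 of 10 were positive, without contemporary 1128 it was -0.16, and without contemporary 1129 it was 0.050. It was 0.90 without OF 0233, 1.27 without OF 0234 and 1.55 without contemporary 1068. On slide 2 alone the median was 0.39, and with array weights -0.08. Limma called 0 of 10 (background 0%, 0 of 19914), with 911 transcripts at an unadjusted p under 0.05. Over all transcripts the median was 0.04, and 56.4% of differences were positive. The groups did not overlap for 0 of 10 genes, against 5.79% of all.

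The genes also shared their order over animals within a group. They were chosen by OF minus YF on these same arrays, where the median difference was 1.51, and 0.32 without OF 2258. Removing group means leaves the deviation of OF 2258 in place, so the values below are not independent of that choice. After each group's mean was removed, the 45 pairs among the 10 genes had a median Pearson r of 0.951 and a median Spearman rho of 0.958 over 12 animals. FOS and EGR1 were the closest pair, with an r of 0.994, and FOSB and DUSP1 the least close, with 0.799. Set against the mean of the other 9, JUNB had the highest r, 0.991, and DUSP1 the lowest, 0.915. The 12 animals share slides and groups: within slide 2, with 8 animals, the median r was 0.968, slide 1 held too few for a value, and with slide means also removed it was 0.953. Without the 2 animals farthest from the median of the 10 genes' mean, it was 0.928, and without OF 2258 alone it was 0.935.

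Some genes outside the 10 followed the same order of animals. Of 19979 other transcripts, 31 (0.155%) had an r of 0.9 or more with the 10 genes' mean, while the median was 0.00 and the 99th percentile 0.78. The 10 most alike named genes follow in falling order of r. BTG2, which slows proliferation and acts on mRNA deadenylation, had an r of 0.99, IL8 (also named CXCL8), a chemokine for neutrophils, of 0.98, and TOB1, a relative of BTG2, also of 0.98. PPP1R15A, which directs a phosphatase to the translation factor eIF2 alpha, had 0.97, as had CSRNP1, a nuclear protein with transcriptional activity, and CYR61, a secreted matrix protein. GCH1, the first enzyme of tetrahydrobiopterin synthesis, and JMJD6, an oxygenase of nuclear proteins, had 0.97. The zinc finger factor KLF4 and NR4A2, a close relative of NR4A1, had 0.95.

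BTG2 (ENSBTAT00000020860, chromosome 16, 890072 to 892370), the most alike, shows the pattern. Its log2 levels were -0.58, 2.07, 0.56 and 0.25 in YF, 0.90, 0.29, 2.56 and 5.14 in OF, and 3.22, -0.28 and 0.54 in the contemporary cows. OF 2258, contemporary 1068, OF 0245 and YF 1070 were again the 4 highest, in this order. Without the 2 animals farthest from the median of the 10 genes' mean, its r was 0.982, that of GCH1 0.914 and that of KLF4 0.899, and 5 of the 10 named genes were still among the 10 most alike.

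**Figure D4:**
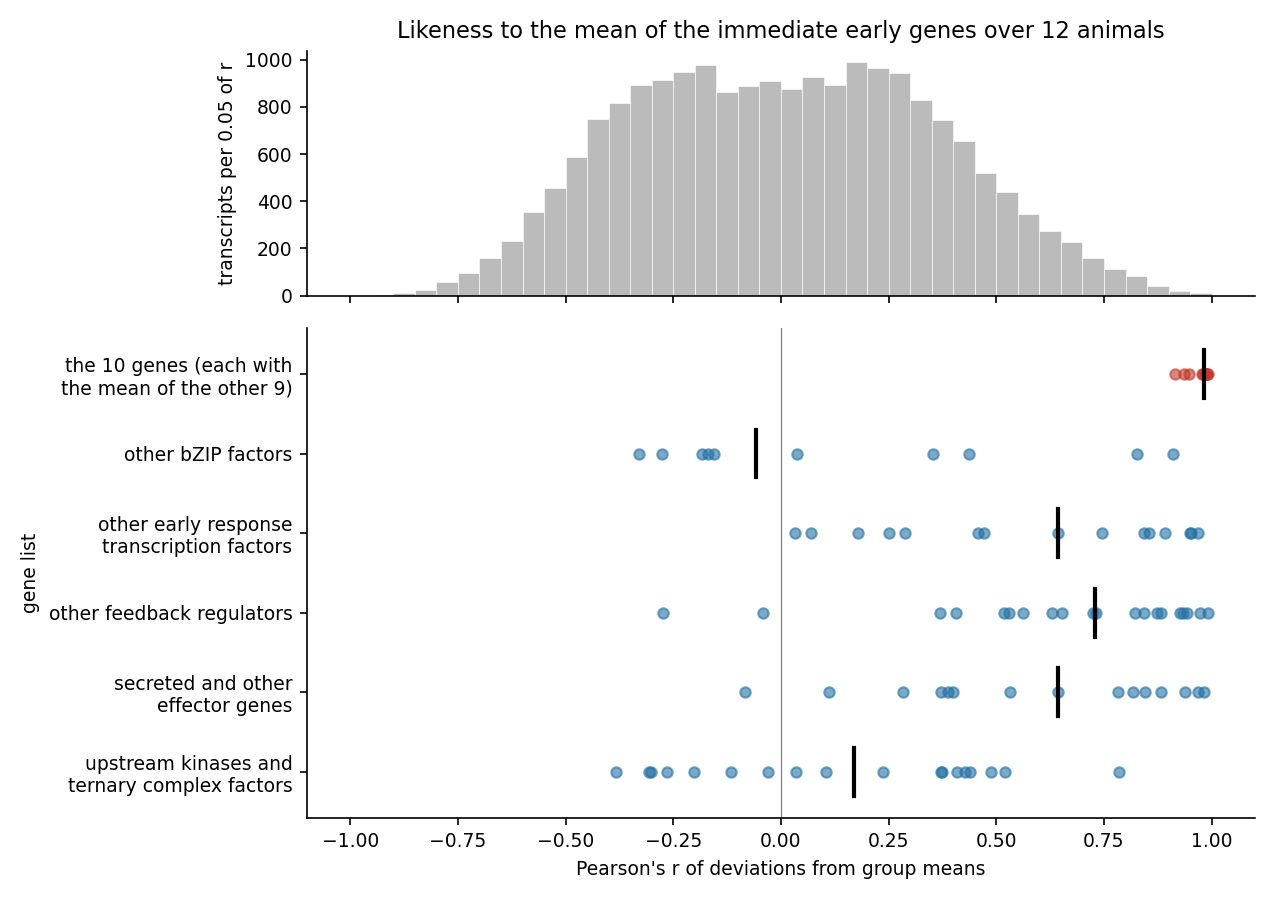
Pearson r over 12 animals, group means removed, with the mean of the 10 immediate early genes: number of transcripts per 0.05 of r (top), and the 10 genes and the genes of 5 lists as points with the list's median as a bar (bottom). The 10 genes lie between 0.915 and 0.991, and the lists differ in their medians from -0.06 to 0.73.

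Other genes of the pathway were taken from 5 lists, none of which had a gene called by limma in any comparison. Among other bZIP factors of the AP-1, ATF, CREB and MAF kind, 13 of 16 were matched to a transcript, 10 were tested and 4 had a higher mean in OF, with a median difference of -0.03 on the log2 scale that was 0.03 with normexp and lay between -0.10 (without OF 0233) and 0.05 (without OF 0234 or YF 1069) with single animals left out. MAFF, a small partner protein without an activation domain, had a log2 difference of 0.89 ± 0.62 (SE) and an r of 0.909 with the 10 genes. BATF, a lymphocyte partner of JUN proteins, had -0.39 ± 0.49 (SE), and ATF4, the factor of the amino acid response, 0.29 ± 0.23 (SE). Without OF 2258 these 3 differences were 0.21, 0.05 and 0.07. The list's median r was -0.06, and ATF4, with 0.827, came nearest to MAFF.

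Other early response transcription factors had a median difference of 0.43 between OF and YF, with 10 of 14 tested positive, and a median r of 0.643. MYC, a driver of growth and proliferation, had a log2 difference of 0.98 ± 0.57 (SE), NR4A2 of 0.90 ± 0.79 (SE) and CSRNP1 of 0.87 ± 0.68 (SE). For MYC, OF 2258 stood at 2.42 and the other 3 OF between -0.14 and 0.06. Without OF 2258 the 3 differences were 0.37, 0.41 and 0.31. The list's median was 0.077 without OF 2258, 0.68 without OF 0234 and 0.75 without the filter on dim probes. Within slide 1 it was 0.44 and within slide 2 0.84, and with array weights it was -0.52. ID3, an inhibitor of basic helix-loop-helix factors, had the lowest r of the list, 0.032.

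Other feedback regulators had the highest median r of the 5 lists, 0.728, and a median difference of 0.39, with 17 of 19 tested positive. BTG2 had a log2 difference of 1.65 ± 1.03 (SE), GADD45G, a stress-inducible regulator of p38 signalling, of 1.44 ± 0.69 (SE), and DUSP2, a nuclear MAP kinase phosphatase, of 1.21 ± 0.60 (SE). When OF 2258 was left out they were 0.68, 0.75 and 0.73. SPRED1, an inhibitor of the RAS pathway, had the lowest r, -0.27. The list's median was 0.22 without OF 2258, 0.74 without OF 0234 and 0.70 without YF 1070. Within slide 1 it was 0.37, within slide 2 0.94 and with the slide as a block 0.67, and with array weights it was -0.18.

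Secreted and other early effector genes had a median difference of 0.19, with 11 of 15 tested positive, and a median r of 0.642. CYR61 had a log2 difference of 1.58 ± 1.22 (SE), CXCL8 of 1.28 ± 1.16 (SE) and THBS1, an adhesive matrix protein that restrains vessel growth, of 1.23 ± 0.74 (SE). OF 2258 had the highest level of each, and leaving it out gave differences of 0.47, 0.23 and 0.42. CXCL8 was dim: it was above background on 4 of 4 OF arrays, 3 of 4 YF arrays and 2 of 3 contemporary arrays, so that it was tested through OF only and not for contemporary minus YF. SGK1, a serum- and glucocorticoid-regulated kinase, had the lowest r, -0.08. The list's median was 0.17 without OF 2258, 0.49 without OF 0234, 0.40 without YF 1070, 0.41 without YF 1072 and 0.32 without the filter on dim probes. Within slide 1 it was 0.081, within slide 2 0.65 and with the slide as a block 0.37, and with array weights it was -0.19.

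The upstream kinases and ternary complex factors, whose proteins act on promoters of early genes, had a median difference of 0.04, with 14 of 18 positive, and a median r of 0.171. SRF, the factor that binds serum response elements, had a log2 difference of 0.61 ± 0.32 (SE) and the highest r, 0.784. MAPK3 (ERK1) had -0.52 ± 0.20 (SE) and the lowest r, -0.38, and MAPK14 (p38 alpha) 0.28 ± 0.27 (SE). The 3 differences were 0.30, -0.35 and 0.05 without OF 2258. Within slide 1 the list's median was -0.14, and within slide 2 it was 0.17. With single animals left out it lay between -0.02 (without YF 1127) and 0.12 (without OF 0245).

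Against YF, the contemporary cows had list medians of 0.07 for the bZIP factors, 0.39 for the early response transcription factors, 0.15 for the feedback regulators, 0.32 for the secreted and effector genes and -0.06 for the upstream kinases. For OF minus contemporary the 5 medians were -0.08, 0.20, 0.24, 0.31 and 0.12. Single animals moved most of these medians. With each animal left out in turn, those of contemporary minus YF lay between -0.10 and 0.20 for the bZIP factors, -0.05 and 0.65 for the early response transcription factors, 0.013 and 0.38 for the feedback regulators and -0.015 and 0.58 for the secreted and effector genes. The lowest of each came without contemporary 1068, as did the lowest for the kinases, -0.15, where the highest was 0.067 without contemporary 1129. Those of OF minus contemporary lay between -0.10 and 0.08, -0.24 and 0.68, -0.03 and 0.43, -0.24 and 0.72 and 0.05 and 0.17, in the same order of lists. Without OF 2258 the early response transcription factors, the feedback regulators and the secreted and effector genes were at their lowest. Leaving out contemporary 1129 gave -0.04 for the early response transcription factors, 0.003 for the feedback regulators and 0.05 for the kinases, and leaving out contemporary 1128 gave 0.001 for the secreted and effector genes. The slide as a block and the array weights moved them as well. With the slide as a block, contemporary minus YF had 0.58 for the feedback regulators, 0.51 for the secreted and effector genes and -0.02 for the kinases, and OF minus contemporary had 0.03 for the bZIP factors and 0.14 for the feedback regulators. With array weights, contemporary minus YF had 0.14 for the early response transcription factors, -0.08 for the feedback regulators and 0.006 for the secreted and effector genes, and OF minus contemporary had -0.44, -0.06 and -0.02 for the same 3 lists.

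Markers of cell types also set OF 2258, the animal with the highest early gene levels, apart from the others. Of 15 smooth muscle markers 14 were matched to a transcript, all above background, with ACTA2 the brightest. Their mean log2 level was 4.29 in OF 2258, 2.73 in OF 0234 and between -0.69 and 0.64 in the other 10 animals, and their summed level was 10.1 in OF 2258, 8.61 in OF 0234 and 5.24 to 6.35 in the others on the log2 scale. OF 0234, second in smooth muscle markers, had one of the lowest means over the 10 early genes, 1.88, against 6.83 in OF 2258. For this and the other markers below, r was taken after each group's mean was removed. The r of the marker mean with the early genes' mean was 0.38 over 12 animals and -0.23 without OF 2258. The part of smooth muscle in the early genes' levels was not tested.

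All 9 epithelial markers were above background, EPCAM the brightest, and their mean log2 level was -0.44 in OF 2258, 0.45 in YF 1069 and 1.20 to 2.32 in the others. These are the animals with the highest and the lowest early gene means, 6.83 and 1.25, and the r with that mean was -0.27 over 12 animals and 0.47 without OF 2258. A list of 8 heat shock genes, which are not markers of a cell type, had a mean of 3.08 in OF 2258 and of 2.03 to 2.40 in the others, with HSP90AA1 the brightest. Their r with the early genes was 0.63 over 12 animals and 0.07 without OF 2258, and single genes ranged from HSPA1L with -0.67 to HSPA1A with 0.75. The list was mixed in OF 2258: BAG3 was at its lowest of 12 animals there, 3.02, and HSPA1L at its second lowest, -4.68. All the others of the list were at their highest in this animal. The part of these markers in the early genes' levels was not tested.

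**Figure D5:**
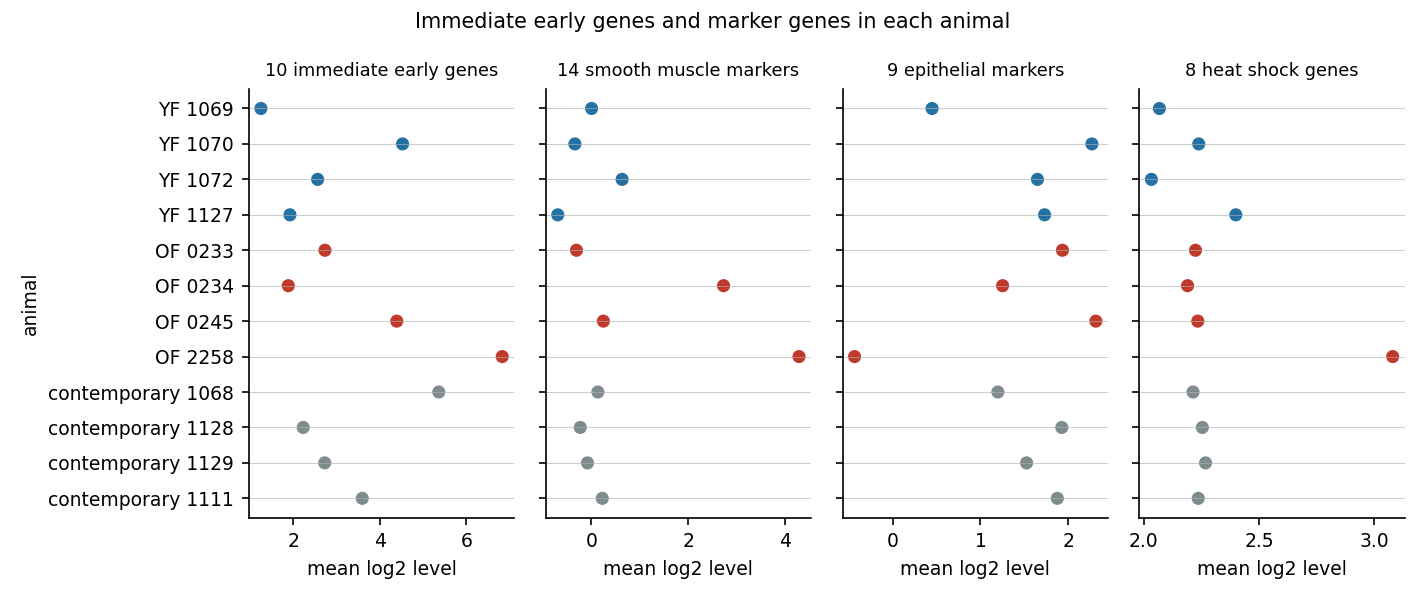
Mean log2 level in each animal, coloured by group, of the 10 immediate early genes, 14 smooth muscle markers, 9 epithelial markers and 8 heat shock genes. OF 2258 is the highest for the early genes (6.83), smooth muscle (4.29) and heat shock genes (3.08) and the lowest for epithelium (-0.44).

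Contemporary 1068, YF 1070 and OF 0245, the next 3 in early gene mean (5.36, 4.52 and 4.39), had smooth muscle means of 0.14, -0.34 and 0.25 and heat shock means of 2.21, 2.24 and 2.23, all within the range of the animals with lower early gene means. Their epithelial means were 1.20, 2.27 and 2.32, of which that of contemporary 1068 was lower than in all but OF 2258 and YF 1069. Endothelial markers, 8 of 8 above background with VWF the brightest, had an r of 0.43 with the early genes (0.64 without OF 2258), and their mean was highest in contemporary 1068, at -0.41. Single endothelial markers ranged from VWF with an r of -0.02 to CDH5 with 0.68. Stromal markers (8 of 8, COL3A1 the brightest) had an r of -0.01 (-0.51 without OF 2258), and single ones ranged from COL1A2 with -0.60 to LUM with 0.55. Leukocyte markers (7 of 10 above background on every array, CSF1R the brightest; ITGAM on 0 arrays and CD163 and MS4A1 on 1 each) had an r of -0.05, and of -0.00 over the 7. Among these 7, single markers ranged from AIF1 with -0.43 to CD68 with 0.866, which was named after its value was seen. CSF1R had -0.17 and CD14 0.02, and the level of CD68 was highest in OF 2258, at -1.60. For neutrophil markers (5 of 5, S100A12) the r was 0.10, for mast cell markers (4 of 5, TPSB2, with MS4A2 on 0 arrays) -0.17 (-0.45 without OF 2258, and -0.29 over the 4) and for erythrocyte markers (4 of 4, HBA) 0.09. The part of these cells in the early genes' levels was not tested.

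Taking the mean of the 10 genes as 1 value per animal, OF had 3.96 ± 2.18 (SD, n = 4), YF 2.56 ± 1.41 (SD, n = 4) and the contemporary cows 3.44 ± 1.69 (SD, n = 3). In OF the values were 2.73, 1.88, 4.39 and 6.83, in YF 1.25, 4.52, 2.56 and 1.92, and in the contemporary cows 5.36, 2.22 and 2.72. Each group held animals at both ends, and the 3 ranges overlapped. The mean on slide 1 exceeded that on slide 2 by 1.96 in YF (2 animals against 2), by 0.58 in OF (1 against 3) and by 0.15 in the contemporary cows (1, animal 1111, against 3), so that slide 1 held the higher mean in each group.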

How the data were processed

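Endometrial RNA of 12 cows was measured on 12 Agilent arrays. The authors deposited, for each spot, the processed intensity from Agilent Feature Extraction 10.7.3.1, corrected for background within the array and not normalized between arrays, and the mean spot and background intensity. Log2 intensity minus the array's 75th percentile was averaged per probe, then per transcript, after 1319 control spots and 66 probes with an outlier mark were left out (61333 probes, 26323 transcripts). Limma 3.58.1 (R 4.3.3) compared the groups two-sided, with Benjamini-Hochberg adjustment over all transcripts that had, in at least 1 of both groups, a probe above background on all arrays, and called at 0.05. FCROS was coded from its description (16 ratios, trim 0.25 at each end, f-value beyond 0.025 or 0.975, fold change 1.5). Both were also run on simulated data, whose outcome is not given here and on which no result rests. A gene's value is that of its transcript with the highest mean level. Named besides the 10 genes are the 3 genes of each list with the largest difference between OF and YF and the 10 genes most like them, together with list genes at the lowest r. The genes and lists were chosen with earlier results of these data known. JUND, CEBPB, CEBPD, KLF2 and ACTG2 could not be matched to a transcript, which does not show that the array lacks them. A planned search for promoter motifs was not run, as the reference used here held no promoter sequences. The number of arrays limits the precision.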

Additional observations from a re-analysis of the deposited data

Results flagged for a closer look

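In 5 of 105 groups of 4 animals, 1 animal lay far from the other 3: its gap to the nearest, divided by the group's range, exceeded Dixon's 95% critical value for 4 samples. Chance gives about 1 in 20 groups where groups are independent. These 105 share animals and hold genes that varied together, so nothing is read from the number 5. In OF, animal 2258 had a mean log2 level of heat shock genes of 3.08 against 2.23 in the next, a ratio of 0.95. In YF, animal 1070 had a FOSB level of 5.14 against 3.58 in the next, a ratio of 0.886. The mean level of other early response transcription factors was -0.79 in YF 1070 against -1.59 in the next, a ratio of 0.876. That mean includes 3 dim genes that were not tested between OF and YF (EGR2, EGR4 and NR4A3), and over the 14 tested genes the ratio was 0.823, below the critical value, an alternative chosen after seeing the data. YF 1127 had the lowest mean of endothelium markers, -1.95 against -1.26, a ratio of 0.877. The same animal had the lowest mean of the other bZIP factors, -3.52 against -2.96, a ratio of 0.96.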

How the results depend on the processing

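The 10 genes' differences were positive, 10 of 10 in each comparison, under the percentile, median, quantile and normexp scalings, with the brightest probe, without the filter on dim probes, with 3 groups in 1 fit and with the slide as a block. None of these scalings moved the median of all transcripts to as much as 0.1. With array weights, 0 of 10 were positive for OF minus YF, 1 of 10 for contemporary minus YF and 2 of 10 for OF minus contemporary. The genes were chosen by OF minus YF and varied together, so 10 of 10 does not stand for 10 separate observations. Limma called 0 of the 10 in every setting, and at most 0 transcripts between OF and YF, 4 between contemporary cows and YF (animal 1111 included) and 26 between OF and contemporary cows (array weights). Array weights turned the median OF minus YF to -0.73 and those of the other early response transcription factors to -0.52, the feedback regulators to -0.18 and the secreted and effector genes to -0.19. For contemporary minus YF they turned the feedback regulators to -0.08, and for OF minus contemporary the same 3 lists to -0.44, -0.06 and -0.02. The cause was not tested. FCROS in place of limma called 5. FCROS called 8 with normexp, 4 with the brightest probe, 7 with dim transcripts left out and 3 without OF 0234 and OF 2258. It called 0 to 10 with each animal left out, where fewer samples enter. All of these alternatives of FCROS were chosen after seeing the data. The share of all transcripts that FCROS called is given for its main setting only, so nothing is read from these counts. The upstream kinases' median was 0.17 on slide 2 and -0.14 on slide 1 for OF minus YF, and -0.15 to 0.067 with each animal left out for contemporary minus YF, and the cause was not tested. Leaving out each animal in turn gave medians over the 10 genes of 0.32 to 2.24 for OF minus YF, -0.12 to 1.43 for contemporary minus YF and -0.39 to 1.55 for OF minus contemporary. The median r among the genes lay between 0.928 and 0.968 in 18 alternatives. Of the 10 most alike genes, 5 to 9 were shared in the 4 alternatives. No paired analysis was possible because the groups share no animals or replicate numbers. Signal over background did not limit the 10 genes, which were above it on 12 of 12 arrays, but FOSL1, EGR2 and IL6 and other dim list genes were not tested.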

Other observations

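Contemporary 1111, which the labels state was left out and which enters the group comparisons only as an alternative, though it is among the 12 animals of the correlations and spreads, had log2 levels of 4.30 for FOS, 4.13 for FOSB, 3.89 for JUN, 3.51 for JUNB and 2.67 for ATF3. In the same animal EGR1 stood at 4.26, NR4A1 at 2.31, ZFP36 at 2.85, DUSP1 at 4.45 and IER2 at 3.53. Its mean over the 10 genes was 3.59, rank 5 from the highest among 12 animals and within the range of the other 3 contemporary cows. Its smooth muscle mean was 0.23, its epithelial mean 1.88 and its heat shock mean 2.24.

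Some genes ran against the early genes over the 12 animals. The most opposed named genes were USP3, a deubiquitinase that acts on histones, with a Pearson r of -0.92, PSTPIP2, an adaptor of the actin cytoskeleton in macrophages, with -0.91, and ASPA, the enzyme that splits N-acetylaspartate, with -0.89. They were looked up after the values were seen, as the 3 lowest.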
